A study of Mus musculus with 6 samples.

Results

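CXC and CX3C chemokines are small signalling proteins that direct the movement of leukocytes through receptors on the cell surface, and the names refer to the spacing of the first cysteines of the protein. The 10 genes examined were *Cxcl1*, *Cxcl2*, *Cxcl5*, *Cxcl9*, *Cxcl10*, *Cxcl12*, *Cxcl13*, *Cxcl14*, *Cxcl16* and *Cx3cl1*, chosen by gene symbol among the 17778 genes listed for mouse colon. Of these, 9 had values and *Cxcl5* was not analysed here. The samples were colons of wild-type C57BL/6J mice, male according to the methods, all fed a high-fat diet (60% fat) for 16 weeks and 21 weeks old at collection. OP (obesity-prone) mice were the 10 with the most weight gain of the 42 mice on this diet, and OR (obesity-resistant) mice were the 10 with the least. Sequencing covered 3 animals of each class, with 1 library per mouse. No lean mice on a normal diet were analysed here, so the comparison is between the extremes of weight gain on a single diet.

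In the gut these ligands fall into groups by what they attract. *Cxcl1*, *Cxcl2* and *Cxcl5* recruit neutrophils through *Cxcr2* and are switched on by NF-κB during acute inflammation. *Cxcl9* and *Cxcl10* are induced by interferon gamma and draw activated T cells through *Cxcr3*. *Cxcl12* is made steadily by stromal cells and acts through *Cxcr4*, while *Cxcl13* guides B cells into lymphoid follicles through *Cxcr5*. *Cxcl16* and *Cx3cl1* are made as membrane-anchored proteins and are released when the proteases encoded by *Adam10* and *Adam17* cut them. For *Cxcl14*, which is expressed without stimulation in many epithelia, the receptor is not settled.

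The neutrophil-attracting genes and *Cxcl10* carry recognisable regulatory letters close to their starts, shown here because the levels of these genes stand at opposite ends of the inducible group. Stretches directly upstream of the annotated start of each gene are given 5′ to 3′, from RefSeq on GRCm38.p6, for *Cxcl1* at chr5:90891135-90891244 (plus strand), *Cxcl2* at chr5:90903789-90903898 (plus strand) and *Cxcl10* at chr5:92348890-92349139 (minus strand). Capitals mark matches to the NF-κB motif (GGG, any 3 bases, TTCC) or to the interferon-stimulated response motif (TTTC, any 2 bases, TTTC), read on both strands.
Cxcl1: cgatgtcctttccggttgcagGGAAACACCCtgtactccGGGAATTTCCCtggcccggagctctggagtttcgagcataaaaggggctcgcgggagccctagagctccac
Cxcl2: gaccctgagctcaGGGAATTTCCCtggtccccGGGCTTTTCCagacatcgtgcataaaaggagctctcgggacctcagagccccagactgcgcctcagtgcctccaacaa
Cxcl10: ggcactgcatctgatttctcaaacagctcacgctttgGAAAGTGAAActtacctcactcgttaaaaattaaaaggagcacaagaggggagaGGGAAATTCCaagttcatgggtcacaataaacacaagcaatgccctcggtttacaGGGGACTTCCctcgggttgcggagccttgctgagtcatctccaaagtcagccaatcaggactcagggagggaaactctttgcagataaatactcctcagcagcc

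*Cxcl1* and *Cxcl2*, which are neighbours on chromosome 5, shared the 14 bases GGGAATTTCCCTGG, in which the NF-κB motif is read on both strands at overlapping positions. The promoter table held 8 of the 10 members, and *Cxcl5* and *Cxcl16* were the others. Over the 250 bases upstream, the NF-κB motif was found in 3 members, *Cxcl1*, *Cxcl2* and *Cxcl10*, and in 4.65% of all 32851 windows of this length. The interferon motif was found in *Cxcl10* and *Cxcl14* and in 2.98% of windows. The interferon gamma activated motif (TTC, any 3 bases, GAA) was found in *Cxcl14* alone of these members and in 7.02% of windows. *Cxcl9* held none of these motifs. A match describes the letters only.

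Expression was deposited as FPKM, the fragments of a gene scaled for the length of its transcript and for the mapped total of the library, so that levels can be compared between genes. The depth of each library is unknown from FPKM. Genes that reached 0.5 FPKM in 3 or more of the mice, 13520 in number, were tested with limma-trend on the log2(FPKM + 1) scale, and p-values were adjusted by the Benjamini-Hochberg method. Calls required an adjusted p below 0.2 together with a ratio OP/OR of 1.2 or more, or of 0.83 or less. Of all genes tested, 3 were called, or 0.0222%. Of the 10 members, 7 passed the filter and 0 were called, and at an unadjusted limma-trend p below 0.05 there was 1, *Cxcl12*, where 4.03% of all genes tested had such a p. In 0 of the 7 did the values of OP and OR mice stay apart, compared with 8.44% of all genes tested. The log2 fold change OP/OR was below 0 in 5 of the 7 and in 70.1% of all genes, with a median of -0.11 for the 7 and -0.10 for all genes. With median-of-ratios scaling it was below 0 in 3 of the 7 and in 6471 of 13482 genes, and without OP mouse 1 in 7081 of 13453 genes.

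Some libraries stood apart, and each ligand result was also computed without each mouse. OP mouse 1 had the fewest genes with a value above 0 (16287, against 16353 to 16619 in the others). OP mouse 2 had 46.88 FPKM of *Hoxb13*, a gene of the hindmost gut, where the other mice had 0 to 1.29, a gene chosen after its values were seen. OP mouse 3 had a summed level of 82.3 FPKM over 8 B cell marker genes, where the other mice had 5.86 to 11.4. All libraries held colon epithelium, with *Epcam* between 935 and 1188 FPKM.

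*Cx3cl1* had the highest level of the members in all 6 mice, taking between 36.6% and 59.1% of the summed chemokine FPKM of a mouse. Its range over the 6 mice was 30.2 to 48.5 FPKM, and that of *Cxcl12*, the next in order by mean, was 6.29 to 37.57 FPKM. The ranges overlapped, although *Cx3cl1* was above *Cxcl12* within each of the 6 mice. *Cxcl16*, *Cxcl14* and *Cxcl13* followed with means over 6 mice of 10.1, 10.1 and 8.15 FPKM, and their ranges overlapped with each other and with that of *Cxcl12*. *Cxcl10* was below 3.5 FPKM in every mouse but lay above *Cxcl9* within each of the 6 mice, at means of 2.53 and 1.28 FPKM. *Cxcl1* and *Cxcl2* had the lowest levels, and neither reached 0.5 FPKM in any mouse.

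**Figure D1:**
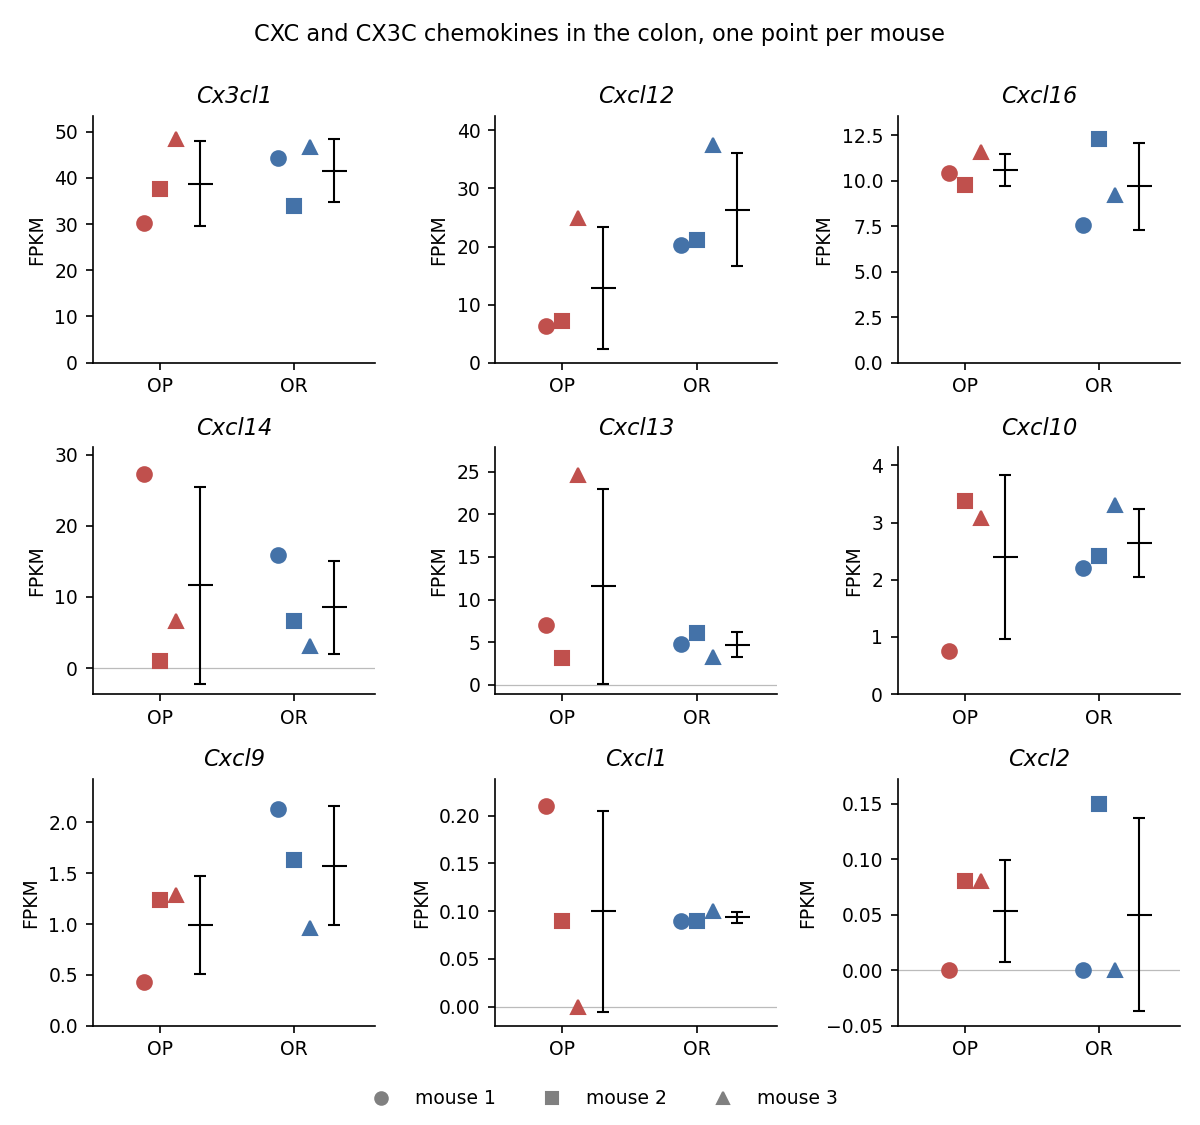
FPKM of the 9 chemokine genes with values, ordered by mean level, with 1 point per mouse (circle, square and triangle for mice 1, 2 and 3), OP mice in red and OR mice in blue, and the group mean with its SD (n = 3) as a black bar. The OP and OR points overlapped in every gene, and OP mouse 3 had the highest *Cxcl13* value at 24.56 FPKM.

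*Cxcl12*, whose protein is a constitutive stromal attractant for cells that carry *Cxcr4*, had the lowest fold change OP/OR of the members. Its level was 6.29, 7.24 and 24.94 FPKM in OP mice 1, 2 and 3 and 20.2, 21.21 and 37.57 FPKM in OR mice 1, 2 and 3. OP mice 1 and 2 were thus below every OR mouse, but OP mouse 3 lay between the OR mice, so the groups overlapped. The mean was 12.8 ± 10.5 FPKM (SD, n = 3) in OP mice and 26.3 ± 9.75 FPKM (SD, n = 3) in OR mice, 2.05 times as high. On the log2(FPKM + 1) scale, which understates the change of low genes, the log2 fold change was -1.18 (SE 0.49, 95% interval -2.33 to -0.03), with an unadjusted limma-trend p of 0.0459 and an adjusted p of 0.945. A two-sided exact permutation test of the FPKM means gave p = 0.3, where 0.1 is the smallest p that 3 mice against 3 allow. With median-of-ratios scaling the log2 fold change was -1.06.

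A single mouse set much of this value. Without OP mouse 3 the log2 fold change of *Cxcl12* was -1.76, with an unadjusted p of 0.000923 and an adjusted p of 0.324 by limma-trend. Without OP mouse 1 it was -0.85, and without OP mouse 2 it was -0.93. OP mice 1 and 2 were below all 3 OR mice in 23.1% of the 13340 genes tested without OP mouse 3, so this order was shared by many genes.

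Markers of stromal cells also had lower sums in OP mice. The summed level of 8 fibroblast markers was 89.2, 61.8 and 133.7 FPKM in the OP mice and 188, 204 and 419 FPKM in the OR mice, without overlap. *Dcn* and *Dpt* had the highest levels of the 8 in every mouse and so weighed most in the sum. All 8 had a log2 fold change below 0 (median -0.87, 0 called), as did 70.1% of all genes tested. In 5 of the 8 every OP mouse was below every OR mouse, as in 6.81% of all genes tested, while *Pdgfra*, *Lum* and *Thy1* overlapped. The 8 blood endothelium markers summed to between 16.2 and 25.3 FPKM in OP mice and between 28.3 and 47.2 FPKM in OR mice (median log2 fold change -0.78, 0 called). Of these 8, 5 had every OP mouse below every OR mouse. Divided by the fibroblast sum, *Cxcl12* was 0.0705, 0.117 and 0.187 in OP mice 1, 2 and 3, compared with 0.107, 0.104 and 0.0898 for OR mice 1, 2 and 3, so that the OR values lay inside the OP range. Divided by the endothelium sum it ranged from 0.389 to 0.985 in OP mice and from 0.629 to 0.796 in OR mice, also overlapping. These ratios were chosen after the values were seen, and the part of stromal content in the result was not tested. In a piece of whole colon, fewer cells of a type and less RNA per cell cannot be told apart.

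**Figure D2:**
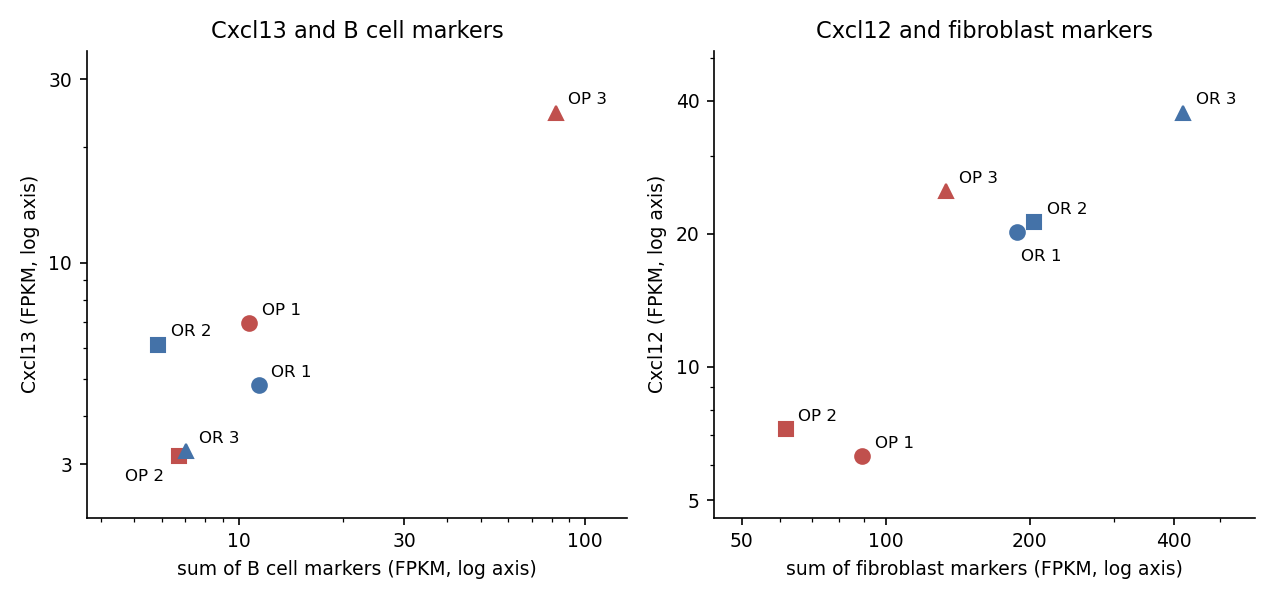
Level of *Cxcl13* against the summed FPKM of 8 B cell markers (left) and of *Cxcl12* against the summed FPKM of 8 fibroblast markers (right), with log axes and 1 point per mouse, OP in red and OR in blue. OP mouse 3 stands alone at the upper right for *Cxcl13*, with a B cell sum of 82.3 FPKM, and OP mice 1 and 2 stand at the lower left for *Cxcl12*.

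The receptors that read or remove *Cxcl12* had different values. *Cxcr4*, its signalling receptor, was 1.73, 1.43 and 8.82 FPKM in the OP mice and 2.73, 2.23 and 2.64 FPKM in the OR mice. OP mouse 3 was far above the others and the other OP mice were below every OR mouse. This gave a log2 fold change of 0.19 (SE 0.50), and of -0.45 without OP mouse 3. *Ackr3*, an atypical receptor that takes up *Cxcl12* without the usual G protein signal, was 1.73, 2 and 3.72 FPKM in the OP mice and 4.93, 5.5 and 8.71 FPKM in the OR mice. Every OP mouse was below every OR mouse, an order found in 6.81% of all genes tested. Its log2 fold change was -1.09 (SE 0.29), with an unadjusted p of 0.00643 and an adjusted p of 0.805 by limma-trend, and it ranged from -1.33 to -0.88 with each mouse left out.

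*Cxcl13*, the B cell attractant of lymphoid follicles, was the member with the highest fold change OP/OR, and a single mouse carried it. The level was 6.97, 3.15 and 24.56 FPKM in OP mice 1, 2 and 3 and 4.82, 6.13 and 3.24 FPKM in OR mice 1, 2 and 3. OP mouse 3 was above all others, and OP mouse 1 was also above every OR mouse. OP mouse 2 was below every OR mouse, by a difference of the second decimal from OR mouse 3. The log2 fold change was 0.75 (SE 0.61, 95% interval -0.67 to 2.18, adjusted p = 0.945, limma-trend), and the two-sided exact permutation p was 0.5. Without OP mouse 3 the log2 fold change was 0.04, and without OP mouse 2 it was 1.35.

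In OP mouse 3 the B cell genes stood apart with *Cxcl13*. *Cxcr5*, the receptor of *Cxcl13*, was 3.04 FPKM in this mouse and between 0.22 and 0.75 FPKM in the other mice. *Cd79a*, part of the B cell receptor, was 39.83 FPKM in OP mouse 3 and between 3.05 and 5.67 FPKM elsewhere. *Cr2*, a complement receptor of B cells and follicular dendritic cells, was 0.28, 0.29 and 2.54 FPKM in the OP mice and 0.22, 0.06 and 0.07 FPKM in the OR mice. For *Cr2* every OP mouse was above every OR mouse, but it did not pass the filter. *Ltb*, which encodes a lymphotoxin subunit that supports follicles, was 16.4 FPKM in OP mouse 3 and between 3.56 and 6.81 FPKM in the other mice. The B cell markers tested had a median log2 fold change of 0.91 over 4 genes, and 0.04 over 3 genes without OP mouse 3. Per unit of summed B cell marker FPKM, *Cxcl13* was 0.299 in OP mouse 3 and between 0.422 and 1.05 in the other mice. The part of B cell content in the *Cxcl13* value was not tested.

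*Cxcl9* and *Cxcl10*, the interferon-induced ligands of *Cxcr3*, had low levels in both groups. *Cxcl9* was 0.43, 1.24 and 1.29 FPKM in the OP mice and 2.13, 1.63 and 0.96 FPKM in the OR mice. OR mouse 3 was below OP mice 2 and 3, so the groups overlapped. The log2 fold change was -0.38 (SE 0.26, 95% interval -0.999 to 0.240, adjusted p = 0.945, limma-trend), and with a pseudocount of 0.1 in place of 1 it was -0.68. *Cxcl10* was 0.76, 3.38 and 3.08 FPKM in the OP mice and 2.2, 2.42 and 3.31 FPKM in the OR mice. OP mouse 1 had the lowest value of both genes, and OP mouse 2 had the highest *Cxcl10*. The log2 fold change of *Cxcl10* was -0.19 (SE 0.36, 95% interval -1.04 to 0.65, adjusted p = 0.955, limma-trend), and it changed sign to 0.23 without OP mouse 1.

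The receptor *Cxcr3* was between 0.91 and 3.02 FPKM in OP mice and between 1.53 and 1.9 FPKM in OR mice, with a log2 fold change of -0.09 (SE 0.29), which was 0.04 without OP mouse 1, 0.12 without OP mouse 2 and -0.42 without OP mouse 3. T and NK cell markers summed to 13.7, 18.6 and 41.2 FPKM in the OP mice and to between 29.7 and 34.5 FPKM in the OR mice. All 6 tested had a log2 fold change below 0 (median -0.43, 0 called), as did 70.1% of all genes tested. Of 9 genes of interferon gamma signalling, 8 were tested, 3 had a fold change below 0 and 0 were called. *Irf1*, a transcription factor of this pathway, was 140.3, 132.6 and 123.1 FPKM in the OP mice and 91.06, 99.86 and 68.05 FPKM in the OR mice. Every OP mouse was above every OR mouse for *Irf1*, an order found in 1.63% of all genes tested, with a log2 fold change of 0.62 (SE 0.17, unadjusted p = 0.00626, adjusted p = 0.805, limma-trend). The related ligand gene *Cxcl11*, next to *Cxcl10*, is annotated as a transcribed pseudogene in the C57BL/6J reference.

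*Cxcl1* and *Cxcl2*, the ligands that call in neutrophils, were near 0 in every mouse. *Cxcl1* was 0.21, 0.09 and 0 FPKM in the OP mice and 0.09, 0.09 and 0.1 FPKM in the OR mice. *Cxcl2* was 0, 0.08 and 0.08 FPKM in the OP mice and 0, 0.15 and 0 FPKM in the OR mice. Neither gene passed the filter, and at values this close to the last decimal given no difference between the groups was detectable. Their receptor *Cxcr2* was also at most 0.21 FPKM in any mouse. Among the neutrophil markers, *S100a9* lay between 0.24 and 0.49 FPKM and *Mpo* was listed at 0 in 5 of the 6 mice, whereas *Ly6g* was 12.54 FPKM in OP mouse 2 and at most 0.65 FPKM in the others. The marker *S100a8* was 1.52, 1.9 and 0 FPKM in the OP mice and 0, 0.47 and 1.44 FPKM in the OR mice. *Csf3r* lay between 0.35 and 0.89 FPKM over the 6 mice.

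Genes that act upstream of the neutrophil ligands had levels from near 0 to well above it. Of 14 genes of TNF, IL-1, IL-17 and NF-κB signalling, 12 were tested and 0 were called, 6 having a fold change below 0 and 6 above 0 (median -0.03). *Il1b*, which encodes an inflammatory cytokine, was 0.72, 0.36 and 0.67 FPKM in the OP mice and 1.65, 0.88 and 1.34 FPKM in the OR mice. Its receptor gene *Il1r1* was 5.21, 6 and 9.06 FPKM in the OP mice and 9.68, 10.58 and 12.98 FPKM in the OR mice. In both genes every OP mouse was below every OR mouse, as in 6.81% of all genes tested, with log2 fold changes of -0.53 (SE 0.20, and -1.03 with a pseudocount of 0.1) and -0.66 (SE 0.23) and an adjusted p of 0.945 for each by limma-trend. *Tnfrsf1a*, a TNF receptor gene, had the same order, at 33.73, 36.08 and 34.21 FPKM in the OP mice and 40.18, 39.34 and 45.51 FPKM in the OR mice. Its log2 fold change was -0.26 (SE 0.12, adjusted p = 0.945, limma-trend). The order was the opposite in *Nfkbiz*, which encodes a nuclear regulator of NF-κB target genes, as in 1.63% of all genes tested. *Nfkbiz* was 27.05, 25.45 and 19.18 FPKM in the OP mice and 18.22, 18.85 and 16.59 FPKM in the OR mice (log2 fold change 0.39, SE 0.17, adjusted p = 0.945, limma-trend). *Il17f*, an IL-17 ligand gene, was listed at 0 in 4 of the 6 mice and was at most 0.08 FPKM. *Tnf* was between 0.72 and 1.86 FPKM over the 6 mice, and the NF-κB subunit gene *Rela* between 21.4 and 29.63 FPKM.

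*Cxcl14* varied more between mice than any other member with values above 0 in all 6 mice. It was 27.23, 0.99 and 6.68 FPKM in the OP mice and 15.85, 6.59 and 3.13 FPKM in the OR mice, so the highest and lowest values, 27.5 times apart, were both in OP mice. The lowest value belonged to OP mouse 2, the mouse with *Hoxb13*. Its log2 fold change was -0.10 (SE 0.93, 95% interval -2.29 to 2.09, adjusted p = 0.989, limma-trend). It was -1.05 without OP mouse 1 and 0.87 without OP mouse 2, and 0.03 with median-of-ratios scaling, so no direction can be given at this spread.

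*Cxcl16* and *Cx3cl1*, the membrane-anchored ligands, were the steadiest members. *Cxcl16*, whose receptor *Cxcr6* marks some T cells and innate lymphocytes, was 10.44, 9.79 and 11.57 FPKM in the OP mice and 7.57, 12.31 and 9.21 FPKM in the OR mice. The OP values lay inside the range of the OR mice. *Cx3cl1*, called fractalkine, was 30.2, 37.54 and 48.5 FPKM in the OP mice and 44.21, 33.84 and 46.6 FPKM in the OR mice, and here the OR values lay inside the range of the OP mice. The highest value over the 6 mice was 1.63 times the lowest for *Cxcl16* and 1.61 times for *Cx3cl1*.

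For both genes the 95% interval of the difference was the narrowest among the 7 members tested. It ran from -0.34 to 0.61 around a log2 fold change of 0.14 for *Cxcl16* (adjusted p = 0.949, limma-trend) and from -0.59 to 0.37 around -0.11 for *Cx3cl1* (adjusted p = 0.955, limma-trend). The sign of *Cx3cl1* turned with median-of-ratios scaling, to 0.02. The receptor *Cx3cr1*, carried by resident macrophages of the gut wall, was 1.01, 0.57 and 1.69 FPKM in the OP mice and 1.45, 2.02 and 1.41 FPKM in the OR mice. OP mouse 3 lay inside the OR range, and the log2 fold change was -0.36 (SE 0.24), with -0.56 without OP mouse 3 and -0.17 without OP mouse 2. The 8 macrophage markers summed to 69.6, 58.1 and 113.2 FPKM in the OP mice and to between 115.6 and 152.8 FPKM in the OR mice. Of the 8, 7 had a log2 fold change below 0 (median -0.91, 0 called), as did 70.1% of all genes tested. In 6 of the 8 every OP mouse was below every OR mouse, as in 6.81% of all genes tested. *Cxcr6* was between 1.67 and 3.6 FPKM in OP mice and between 2.23 and 3.46 FPKM in OR mice (log2 fold change -0.14, SE 0.25, and 0.04 without OP mouse 1).

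The proteases that release or trim these ligands were present in both groups. *Adam10* was between 30.09 and 35.9 FPKM and *Adam17* between 10.7 and 11.53 FPKM over the 6 mice, and both overlapped between the groups. Of the 6 protease genes listed, 5 were tested and 0 were called. *Mmp2*, a matrix metalloprotease made by stromal cells that can also cut *Cxcl12* protein, was 5.28, 2.64 and 7.56 FPKM in the OP mice and 7.55, 11.3 and 14.82 FPKM in the OR mice, overlapping by a difference of the second decimal between OP mouse 3 and OR mouse 1. Its log2 fold change was -1.03 (SE 0.36, adjusted p = 0.945, limma-trend).

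**Figure D3:**
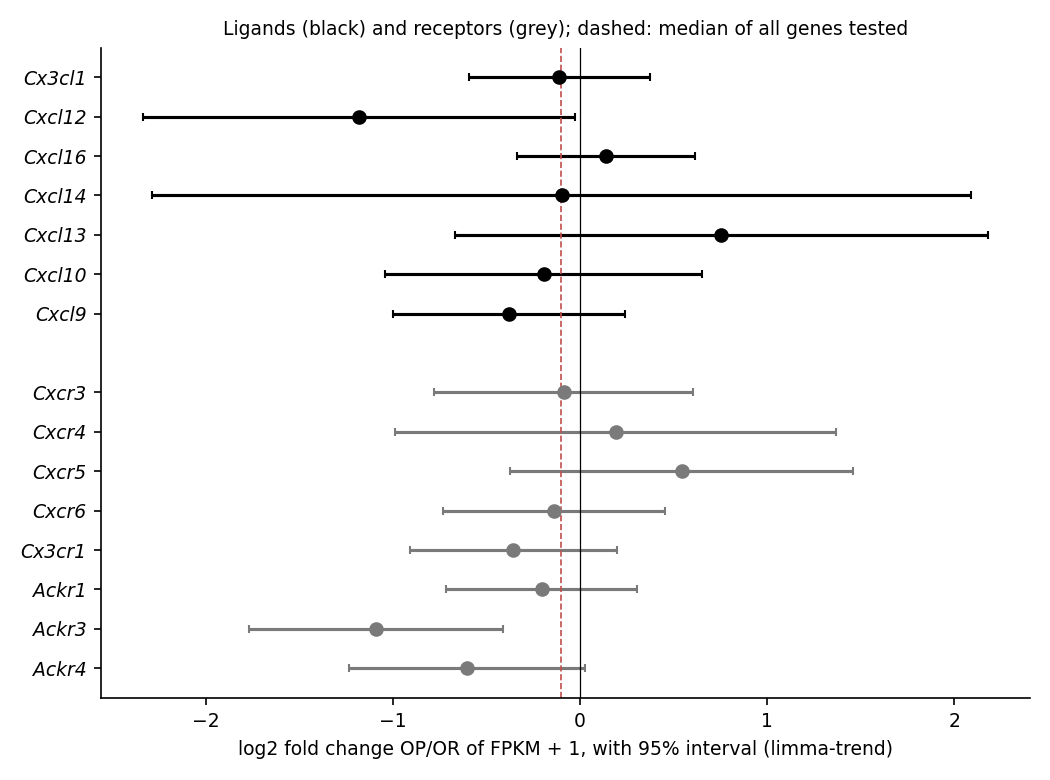
Log2 fold change OP/OR of FPKM + 1 (horizontal axis, negative where OP is lower) with its 95% interval from limma-trend for the 7 ligands tested (black) and the 8 receptors tested (grey), with the median of all genes as a dashed line at -0.10. The intervals of *Cxcl12* and *Ackr3* lie below 0, neither with an adjusted p below 0.2, and that of *Cxcl14* is the widest.

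Over the receptor list of 10 genes, 8 were tested, 6 had a log2 fold change below 0 and 0 were called (median -0.17). Of all genes tested, 70.1% had a log2 fold change below 0. Besides *Ackr3*, the receptor whose OP values all lay below the OR values was *Ackr4*, a scavenging receptor of homeostatic chemokines. This order was found in 6.81% of all genes tested. *Ackr4* was 1.4, 2.93 and 3.29 FPKM in the OP mice and 3.73, 3.81 and 5.25 FPKM in the OR mice (log2 fold change -0.60, SE 0.27, adjusted p = 0.945, limma-trend). This fold change was -0.35 without OP mouse 1 and -0.77 without OP mouse 3. Among the other CXC ligands of the mouse, *Pf4* (platelet factor 4), made by megakaryocytes and some macrophages, passed the filter. It was 1.72, 0.79 and 3 FPKM in the OP mice and 7.79, 6.78 and 10.04 FPKM in the OR mice, without overlap, an order found in 6.81% of all genes tested. The log2 fold change of *Pf4* was -1.76 (SE 0.31, unadjusted p = 0.000687, adjusted p = 0.620, limma-trend), and with each mouse left out it ranged from -2.04 to -1.46. *Cxcl17* was at most 0.13 FPKM in any mouse.

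Leaving out mice 1 at a time showed how far each ligand rested on single animals. The sign stayed negative in all 6 fits for *Cxcl12* (-1.76 to -0.85) and *Cxcl9* (-0.56 to -0.16) and positive in all 6 for *Cxcl13* (0.04 to 1.35). For *Cxcl10*, *Cxcl14*, *Cxcl16* and *Cx3cl1* it turned in at least 1 fit. In 0 of these fits was a member called.

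**Figure D4:**
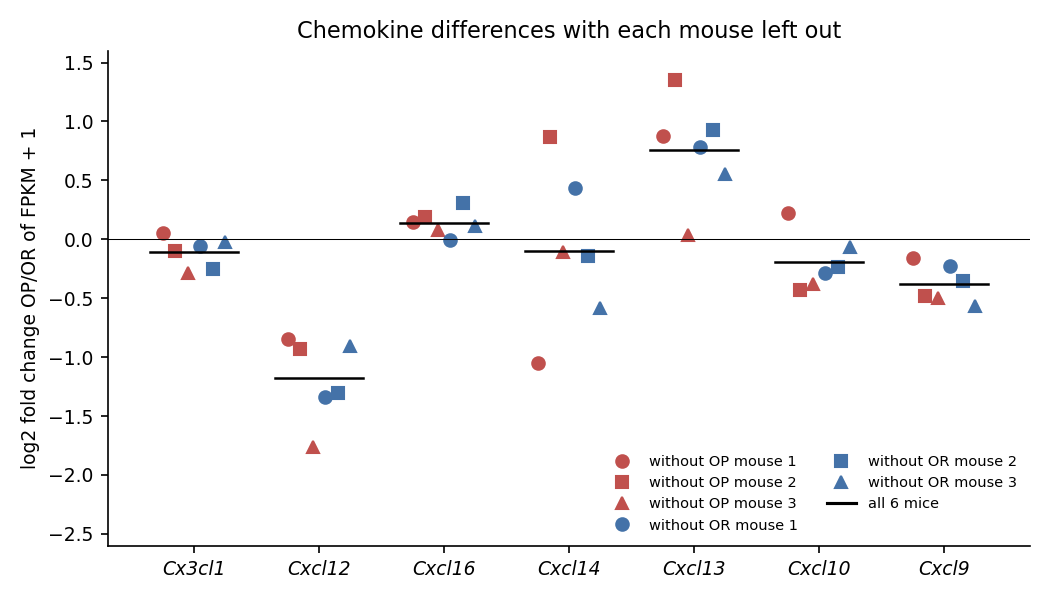
Log2 fold change OP/OR of FPKM + 1 for the 7 ligands tested with all 6 mice (black line) and with each mouse left out (points, red where an OP mouse and blue where an OR mouse was left out, circle, square and triangle for mice 1, 2 and 3). The *Cxcl13* value is 0.04 without OP mouse 3, and the *Cxcl14* value moves from -1.05 to 0.87.

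The genes whose levels followed each member most closely over the 6 mice are given as a description, by Pearson's r of log2(FPKM + 1) among 12463 other genes with a mean FPKM of at least 1. They share the libraries and the depth of each mouse with the member. With 6 mice and this many genes compared, some high values of r arise by chance, and how many was not computed. For *Cxcl12* they were *Galnt4* (r = 0.99), *Atad1* (r = 0.99) and *Tcp11l2* (r = 0.99), with 87 genes above 0.95. For *Cxcl13* they were *LOC118568634* (r = 0.99), *Rsrp1* (r = 0.99) and *Zmynd8* (r = 0.99), with 30 genes above 0.95. *Cx3cl1* had the most such genes, 335, led by *Luc7l*, *Tmem231* and *Smg6*, and *Cxcl16* had the fewest, 2, which were *Mettl26* and *Tm2d1*, followed by *AI987944* at r = 0.947. *Cxcl9* had 19, led by *Cenpq*, *Rhno1* and *Brd7*, and *Cxcl10* had 178, led by *Mapk12*, *Magoh* and *Glt1d1*. *Cxcl14* had 21, led by *Plekha3*, *Crat* and *Nabp2*. None of these leading genes is a chemokine or a chemokine receptor. Within the family, *Cxcl9* and *Cxcl10* had r = 0.54, *Cxcl12* and *Cx3cl1* r = 0.74, and *Cxcl10* and *Cxcl14* r = -0.85.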

How the data were processed

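Per the labels and the study's methods, the authors aligned filtered reads to a reference gene set with Bowtie2 (2.2.5 in the labels), quantified genes with RSEM (1.2.12 in the labels) and deposited FPKM values to 2 decimals, 1 column per mouse; the methods give other versions, and the submitters' processing notes name HISAT2 (2.0.4) and GRCm39. Read totals are not part of FPKM, so depth and counting error are unknown. Groups and replicate numbers came from the labels.

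From these values, log2(FPKM + 1) was fitted with limma-trend (limma 3.58.1, R 4.3.3) over 13520 genes, without covariates, since a count model such as that of the study could not be used. The procedure was tested on simulated data. The 6 pathway lists and 11 marker lists were written by hand, and the members and lists were chosen with earlier results of these data known. Genes named are the members, genes of these lists, and for each tested member the 3 most correlated genes; *Hoxb13* was singled out after its values were seen. A gene of the interferon list is not reported here by name. Alternatives were median-of-ratios scaling, a fit with no trend, rescaling to a total of 1000000, a pseudocount of 0.1, filters, sample weights, a replicate block and each mouse left out. Promoter letters came from RefSeq on GRCm38.p6, another build than that of the files, which hold no coordinates. Whether same-group mice shared a cage or litter is not given in the sources used here. The p-values set the difference between groups against the spread within groups and treat the mice as independent. A cage or litter shared within a group could not be told apart from the group.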

Additional observations from a re-analysis of the deposited data

How the results depend on the processing

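Of the 7 ligands tested, 0 were called in the comparison of 6 mice and 0 under the alternatives in which they were tested, and the same held for the genes of the 6 pathway lists. With at least 1 FPKM required in all 6 mice, *Cxcl9*, *Cxcl10*, *Cxcl14* and *Pf4* were not tested. When every gene listed above 0 in some mouse was tested, *Cxcl1* and *Cxcl2* entered the test at log2 fold changes of 0.0044 and 0.0068. Over all genes, 3 were called lower in OP mice. This number became 0 under median-of-ratios scaling, 0 under rescaling to a total of 1000000, 0 with a pseudocount of 0.1, 0 without the filter, 0 with at least 1 FPKM in all 6 mice, 0 with the replicate block, 5 with sample weights and between 0 and 1 when mice were left out singly, and the cause was not tested. The count of genes higher was 0 in all of these. Genes with p under 0.05 before adjustment (limma-trend) numbered 477 lower and 68 higher.

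Some directions turned, among genes with a fold change near 0. With median-of-ratios scaling, which moved the median of all genes from -0.10 to 0.01, *Cxcl14* was 0.032 and *Cx3cl1* 0.024, and with sample weights *Cxcl10* was 0.018. With each mouse left out, *Cxcl10* ranged from -0.43 to 0.23, *Cxcl14* from -1.05 to 0.87, *Cxcl16* from -0.0100 to 0.31, *Cx3cl1* from -0.28 to 0.051, *Cxcr3* from -0.42 to 0.12, *Cxcr4* from -0.45 to 0.55 and *Cxcr6* from -0.35 to 0.038.

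Mice of the same number are different animals, and their deviations from the group means correlated at -0.16 to 0.07. In 0 of 3 cases did an OP mouse correlate best with the OR mouse of its number. With the replicate block, the paired fit, *Cxcl12* had an unadjusted p of 0.00192 and an adjusted p of 0.687 (limma-trend). The adjusted p of *Cxcl12* ran from 0.324 to 1.00 over all alternatives. Without depths, low values such as those of *Cxcl1* and *Cxcl2* carry no error estimate.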

Other observations

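Marker genes of the other cell types in the colon pieces are given as values. Among the 9 epithelial markers the fold change was above 0 in 7 and below 0 in 2 (median 0.19 in log2 units, 0 called). The 2 below 0 were *Car1* (log2 fold change -0.94) and *Muc2* (-1.45), both overlapping between the groups. *Car1*, a colonocyte enzyme, was between 1054 and 15723 FPKM over the 6 mice. The goblet cell mucin *Muc2* was 17.59, 563.4 and 188.4 FPKM in the OP mice and 154.4, 275.7 and 933.2 FPKM in the OR mice, so it was lowest in OP mouse 1, where *Cxcl14* was highest. Of 6 smooth muscle markers, all had a fold change below 0 (median -0.35, 0 called), a direction shared by 70.1% of all genes tested. *Acta2*, smooth muscle actin, was between 363.2 and 485 FPKM in OP mice and between 487.2 and 819.8 FPKM in OR mice. It was the 1 marker of the 6 in which every OP mouse was below every OR mouse, as in 6.81% of all genes tested. The other smooth muscle markers overlapped. The 7 enteric glia and neuron markers had 4 fold changes below 0 (median -0.33, 0 called). Of the 6 adipocyte markers, 5 had a fold change below 0 (median -0.55, 0 called), and *Adipoq*, an adipocyte hormone, was listed at 0 in OP mouse 2 and between 2.81 and 18.48 FPKM in the other mice. Their part in the chemokine values was not tested.

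Of 7 follicle and lymphoid stroma markers, 4 were tested and 0 called (median -0.03). *Ccl21a*, a chemokine of lymphatic vessels and lymphoid stroma, was 16.1, 19.05 and 31.31 FPKM in the OP mice and 30.61, 86.08 and 88.2 FPKM in the OR mice. *Clu*, which follicular dendritic cells and other cells express, was 17.53, 16.46 and 66 FPKM in the OP mice and 16.35, 10.52 and 13.24 FPKM in the OR mice. Every OP mouse was above every OR mouse for *Clu*, as in 1.63% of all genes tested. Of 8 genes of lymphotoxin signalling, 6 were tested and 0 were called (median 0.02). Of 8 neutrophil markers, 2 were tested (median 0.09, 0 called), with log2 fold changes of 0.34 for *S100a8* and -0.17 for *Csf3r*.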
